A study of Sus scrofa with 10 samples.

Results

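Precursors of oligodendrocytes carry a characteristic set of proteins at their surface, and the transcripts of 5 of them were followed through the developing and adult pig medial entorhinal cortex (MEC). The genes were PDGFRA, CSPG4, LHFPL3, MMP16 and GPR17, taken by name from 22452 genes in the count tables, and all 5 were measured in all 10 libraries. The study captured 28229 single cells or nuclei with the 10X Genomics version 2 chemistry, to describe the cell types of the MEC as it develops. Fresh tissue dissociated with papain gave the 8 whole cell libraries, and frozen tissue gave the 2 libraries of nuclei, which were sorted on a DNA stain. Whole cells were 1 library at embryonic day (E) 50 from 3 pooled brains (E50_1), 3 at E60 from 1, 1 and 2 brains (E60_1, E60_2 and E60_3), 3 at E70 from 2, 1 and 1 brains (E70_1, E70_2 and E70_3, by the labels, from which the study's own list of samples differs for E70_1 and E70_3) and 1 adult library from 1 brain (Adult_1). Nuclei were 1 library at E70 (E70_nc) and 1 adult library (Adult_nc), each from 1 brain. The labels list no treatment or genetic change, and replication was limited to whole cells at E60 and E70. By the paper, the adult brains were from sows killed for another study, whose treatment it does not give. Its account of the age of the postnatal animals differs between passages, and they are called adult here after the labels.

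PDGFRA is the receptor tyrosine kinase for PDGF-A, the growth factor that keeps oligodendrocyte precursors dividing. CSPG4, also called NG2, is a membrane proteoglycan that gave these cells their older name of NG2 glia, and it is equally known on pericytes, the mural cells of small vessels. GPR17 is a receptor related to the nucleotide and cysteinyl leukotriene receptors and is known from precursors that have committed to become oligodendrocytes, before myelin is made. MMP16 is a metalloproteinase anchored in the membrane, and LHFPL3 belongs to a small family of multi-pass membrane proteins whose role in these cells is little described. In the usual course of the lineage, dividing precursors lose PDGFRA and CSPG4, pass through a stage with GPR17, and then express myelin genes such as MBP and MAG.

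The genes differed greatly in length, which matters because the reads were counted over introns as well as exons. On Sscrofa11.1, as annotated by RefSeq, PDGFRA lies on chromosome 8 from 40966568 to 41021440, and CSPG4 on chromosome 7 from 57949182 to 57988602. LHFPL3 lies on chromosome 9 from 104269664 to 104828686, MMP16 on chromosome 4 from 48556826 to 48867959, and GPR17 on chromosome 15 from 59692992 to 59702513, the last on the minus strand. LHFPL3 spans 559.0 kb with 3 exons in its longest coding transcript, of which 1.25% is exonic, and MMP16 spans 311.1 kb with 3.87% exonic. PDGFRA spans 54.9 kb (11.5% exonic), CSPG4 39.4 kb (21.6%) and GPR17 9.5 kb (59.8%). GPR17 lies wholly within the span of LIMS2 on the opposite strand, and the first bases of MMP16 overlap a noncoding RNA gene on the opposite strand. Levels are therefore compared only within a gene, across cells and libraries.

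PDGFRA and GPR17 were the pair whose levels were most alike to each other after LHFPL3 and MMP16, as given further on, and the 250 bases before the annotated start of both are shown for context. Capitals mark matches, on either strand, to CAGATG, E-box letters read by factors of the OLIG kind, or to ACAAAG, read by SOX factors. Both are read 5′ to 3′ on the strand of the gene, at chr8:40966318-40966567 and at chr15:59702514-59702763 of Sscrofa11.1.
PDGFRA: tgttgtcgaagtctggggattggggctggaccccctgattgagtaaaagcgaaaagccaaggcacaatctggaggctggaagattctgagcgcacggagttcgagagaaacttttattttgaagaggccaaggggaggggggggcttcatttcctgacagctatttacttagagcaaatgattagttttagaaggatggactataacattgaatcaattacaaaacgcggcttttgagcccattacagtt
GPR17: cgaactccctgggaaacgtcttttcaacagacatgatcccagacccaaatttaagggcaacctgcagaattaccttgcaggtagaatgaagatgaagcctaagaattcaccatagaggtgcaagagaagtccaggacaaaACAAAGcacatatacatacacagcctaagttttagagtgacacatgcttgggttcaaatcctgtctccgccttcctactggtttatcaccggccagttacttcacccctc
The only match was ACAAAG in the window of GPR17, which begins 110 bases before the start. Of 19559 protein-coding genes, 12.5% held CAGATG, 13.6% held CAGCTG and 12.1% held ACAAAG in the same window. These letters are thus common there, and their presence describes the sequence only.

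Sequencing depth set what could be seen. The libraries held 493 to 8171 cells and 2336865 to 55755512 UMIs, with a median depth of 690 UMIs for a nucleus in Adult_nc, 2616 in E70_nc and 4251 to 9403 UMIs for a cell in the others. Levels are given in CPM, the UMIs of a gene per 1000000 UMIs summed over the cells named, with exact Poisson 95% intervals, and shares of cells with exact Clopper-Pearson 95% intervals (CI), both of which cover counting error only. E60_1 and E60_2 did not look like cortex in their neurons: the cortical gene EMX1 was at 0.482 CPM in E60_1 and 0.511 CPM in E60_2 but at 17.2 CPM in E60_3, and neither library held 10 excitatory-like cells. HBB, a globin gene, was at 50592 and 60371 CPM in these libraries against 13620 to 19774 CPM in the other whole cell fetal libraries. Over the 45 pairs of libraries, 0 to 57 cell barcodes were shared by a pair. Nothing in the labels says that replicate libraries came from different litters, so p-values measure the spread between these libraries.

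Cells were clustered without the 5 genes and without all marker genes, and clusters were named from fixed marker lists that held none of the 5. This gave 739 precursor-like cells, 293 committed precursor-like cells and 1924 oligodendrocyte-like cells, or 2956 cells of the lineage, while 5816 cells stayed unnamed. Genes expressed together with the 5 did shape the clusters, so differences between classes are described and not tested. Precursor-like cells numbered 125 in E50_1, 253 in E60_1, 48 in E60_2, 14 in E60_3, 82 in E70_3, 23 in E70_nc and 186 in Adult_nc. E70_1 and E70_2 held 5 and 3 of them and Adult_1 held 0 of 737 cells, so that levels of the class could be given for 7 libraries, those with at least 10 such cells.

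PDGFRA marked the precursor-like class. In these cells it was at 246 CPM in E50_1, 179 in E60_1, 110 in E60_2, 93.6 in E60_3, 192 in E70_3, 267 in E70_nc and 232 in Adult_nc. In each of the 7 libraries this was the highest level of any named class, from 1.497 times the next class in E60_2 to 20.1 times in E50_1. Microglia-like cells, which should lack the gene and were taken as a background, had 1.30 CPM in E50_1, between 4.04 and 5.12 CPM in the E60 libraries, 4.90 in E70_3 and 18.5 in Adult_nc. Over all libraries the level was 201 CPM (186 to 217) in precursor-like cells, 63.6 in committed precursor-like cells and 18.9 in oligodendrocyte-like cells, and no library value of any other named class reached the lowest precursor-like value of 93.6 CPM. Fibroblast-like cells, which are rich in collagen genes and of a kind where the receptor is well known, had 12.2 CPM, near the 12.2 CPM of photoreceptor-like cells and with a range of 10.1 to 31.4 CPM over 6 libraries.

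A UMI of PDGFRA was found in 44.7% (CI 41.0 to 48.3%) of precursor-like cells at a median of 4035 UMIs per cell, and in 16.7% of the 670 such cells that could be drawn down to 1000 UMIs. In microglia-like cells, at a median of 5064 UMIs, the shares were 2.87% and 0.396%, so that the shares in precursor-like cells stood above this background at both depths. The microglia-like class held clusters of 558 and 205 cells in which 24.2% and 29.3% of cells were marked as likely doublets, so it can hold RNA of other cells as well as free RNA. Its largest cluster, of 1271 cells with 0.0787% so marked, had PDGFRA at 4.18 CPM, LHFPL3 at 29.0, MMP16 at 10.6 and GPR17 at 1.57, below the class as a whole for each of these genes.

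CSPG4 was shared between the lineage and the vessel wall. Mural-like cells had 234 CPM in E50_1, 120 in E60_1, 147 in E60_2 and 58.4 in Adult_1, the 4 libraries with at least 10 such cells, and in each of them no other named class was as high. In precursor-like cells CSPG4 was at 30.4 CPM in E50_1, 32.0 in E60_1, 3.94 in E60_2, 86.4 in E60_3, 47.1 in E70_3 and 129 in Adult_nc, and 0 UMIs were found in the 23 cells of E70_nc, where 3 UMIs would have made 80.0 CPM. The pooled levels of 133 and 39.3 CPM thus came with library ranges that overlapped, from 58.4 to 234 CPM in mural-like and from 0 to 129 CPM in precursor-like cells. In E60_2 the value rested on 1 UMI. Fibroblast-like cells followed with 27.1 CPM, and a range of 0 to 35.0 CPM over libraries.

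Most CSPG4 transcripts lay outside the lineage when libraries were pooled. Of 2196 UMIs, 9.15% fell in the lineage, which held 3.96% of all UMIs, whereas 37.9% of PDGFRA UMIs fell in the lineage. Mural-like cells held 13.3% of CSPG4 UMIs on 1.06% of all UMIs, and unnamed cells 44.3% on 25.5%. By library the lineage share of CSPG4 ran from 0% in E70_1 and E70_nc to 21.9% in Adult_1 and 75.3% in Adult_nc, where the lineage held 24.9% and 68.6% of all UMIs. A single unnamed cluster of 472 cells, whose leading genes included both RGS5, a pericyte gene (839 CPM), and FLT1, an endothelial gene (938 CPM), held 757 CSPG4 UMIs, or 34.5% of all. These cells had a median of 15705 UMIs, the cluster held 9.75% of cells marked as likely doublets, and CSPG4 was at 72.3 CPM in them. CSPG4 was detected in 50.4% of mural-like cells (median depth 5877 UMIs) and in 15.7% of precursor-like cells (CI 13.1 to 18.5%), and in 2.17% of microglia-like cells.

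LHFPL3 and MMP16 gave far more UMIs per cell and were seen in nearly every precursor-like cell, 98.8% for LHFPL3 and 98.2% for MMP16, against 27.8% and 17.7% of microglia-like cells. LHFPL3 was at 2420 CPM in the precursor-like cells of E50_1, 2708 in E60_1, 2054 in E60_2, 4743 in E60_3, 4262 in E70_3, 8003 in E70_nc and 3492 in Adult_nc. Every one of these values exceeded every library value of the other named classes, where the highest was 1744 CPM in the committed precursor-like cells of E50_1. The gene was nevertheless broad. Astroglia-like cells had 572 CPM with a range of 311 to 1075 CPM over 9 libraries, GABAergic-like neurons had 483 CPM (184 to 885 CPM), and these ranges overlapped, while microglia-like cells had 132 CPM and endothelial-like cells 66.3 CPM. Outside the named classes, an unnamed cluster of 1018 cells had LHFPL3 at 1050 CPM and held 11.7% of LHFPL3 UMIs on 3.51% of all UMIs. It had OLIG1 at 253 CPM, but its highest marker score was that of astroglia. Its level of AQP4, an astroglial gene, was 597 CPM. SOX10, a marker on the precursor list, was at 11.7 CPM in it and at 71.1 CPM in precursor-like cells.

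MMP16 was at 1820 CPM in the precursor-like cells of E50_1, 2081 in E60_1, 1900 in E60_2, 1375 in E60_3, 1303 in E70_3, 6295 in E70_nc and 4549 in Adult_nc. Precursor-like cells were the highest named class in each of these libraries, by 1.80 to 3.78 times. Neurons came next after the precursor classes, with 490 CPM in GABAergic-like and 285 CPM in excitatory-like cells, and these classes reached 1666 and 1624 CPM in E70_nc, which lie within the precursor-like range of the whole cell libraries. Microglia-like cells had 78.2 CPM and endothelial-like cells 39.6 CPM. The neuronal classes, with intermediate progenitor-like cells counted among them, held 38.2% of MMP16 UMIs on 30.1% of all UMIs. The lineage held 17.8% of MMP16 UMIs on 3.96% of all UMIs. The corresponding shares of LHFPL3 were 16.2% and 20.6%. Astroglia-like cells held 27.0% of LHFPL3 UMIs on 14.8% of all UMIs.

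Of 2024 GPR17 UMIs over all libraries, 946 of them from E60_1, 75.7% fell in the lineage, which held 3.96% of all UMIs. By library the share ran from 5.26% of 19 UMIs in E70_1 and 16.7% of 12 UMIs in E70_nc to 90.7% of 107 UMIs in Adult_nc. The lineage held 0.942%, 1.35% and 68.6% of all UMIs in these libraries. Outside the lineage, the highest library value of a named class was 13.7 CPM, in the mural-like cells of E60_1. In committed precursor-like cells it was at 1178 CPM in E50_1, 482 in E60_1 and 361 in E60_2, and at 10.1 CPM (1 UMI) in the 17 such cells of Adult_1. In precursor-like cells it was at 241 CPM in E50_1, 234 in E60_1, 162 in E60_2, 57.6 in E60_3, 99.9 in E70_3, 53.4 in E70_nc (2 UMIs) and 174 in Adult_nc. The committed class was thus above the precursor class in each of the 3 fetal libraries with at least 10 cells of both. E50_1 held only 11 committed cells, and the 190 and 69 of E60_1 and E60_2 came from the libraries that did not look like cortex. The class also pooled subclusters that differed in GPR17, at 220 and 933 CPM. The pooled levels were 475 CPM (442 to 510) and 192 CPM (178 to 208), beside 35.7 CPM in oligodendrocyte-like and 4.82 CPM in microglia-like cells. A UMI of GPR17 was found in 58.4% of committed precursor-like cells (median depth 5008 UMIs), 41.5% of precursor-like cells and 1.67% of microglia-like cells.

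**Figure D1:**
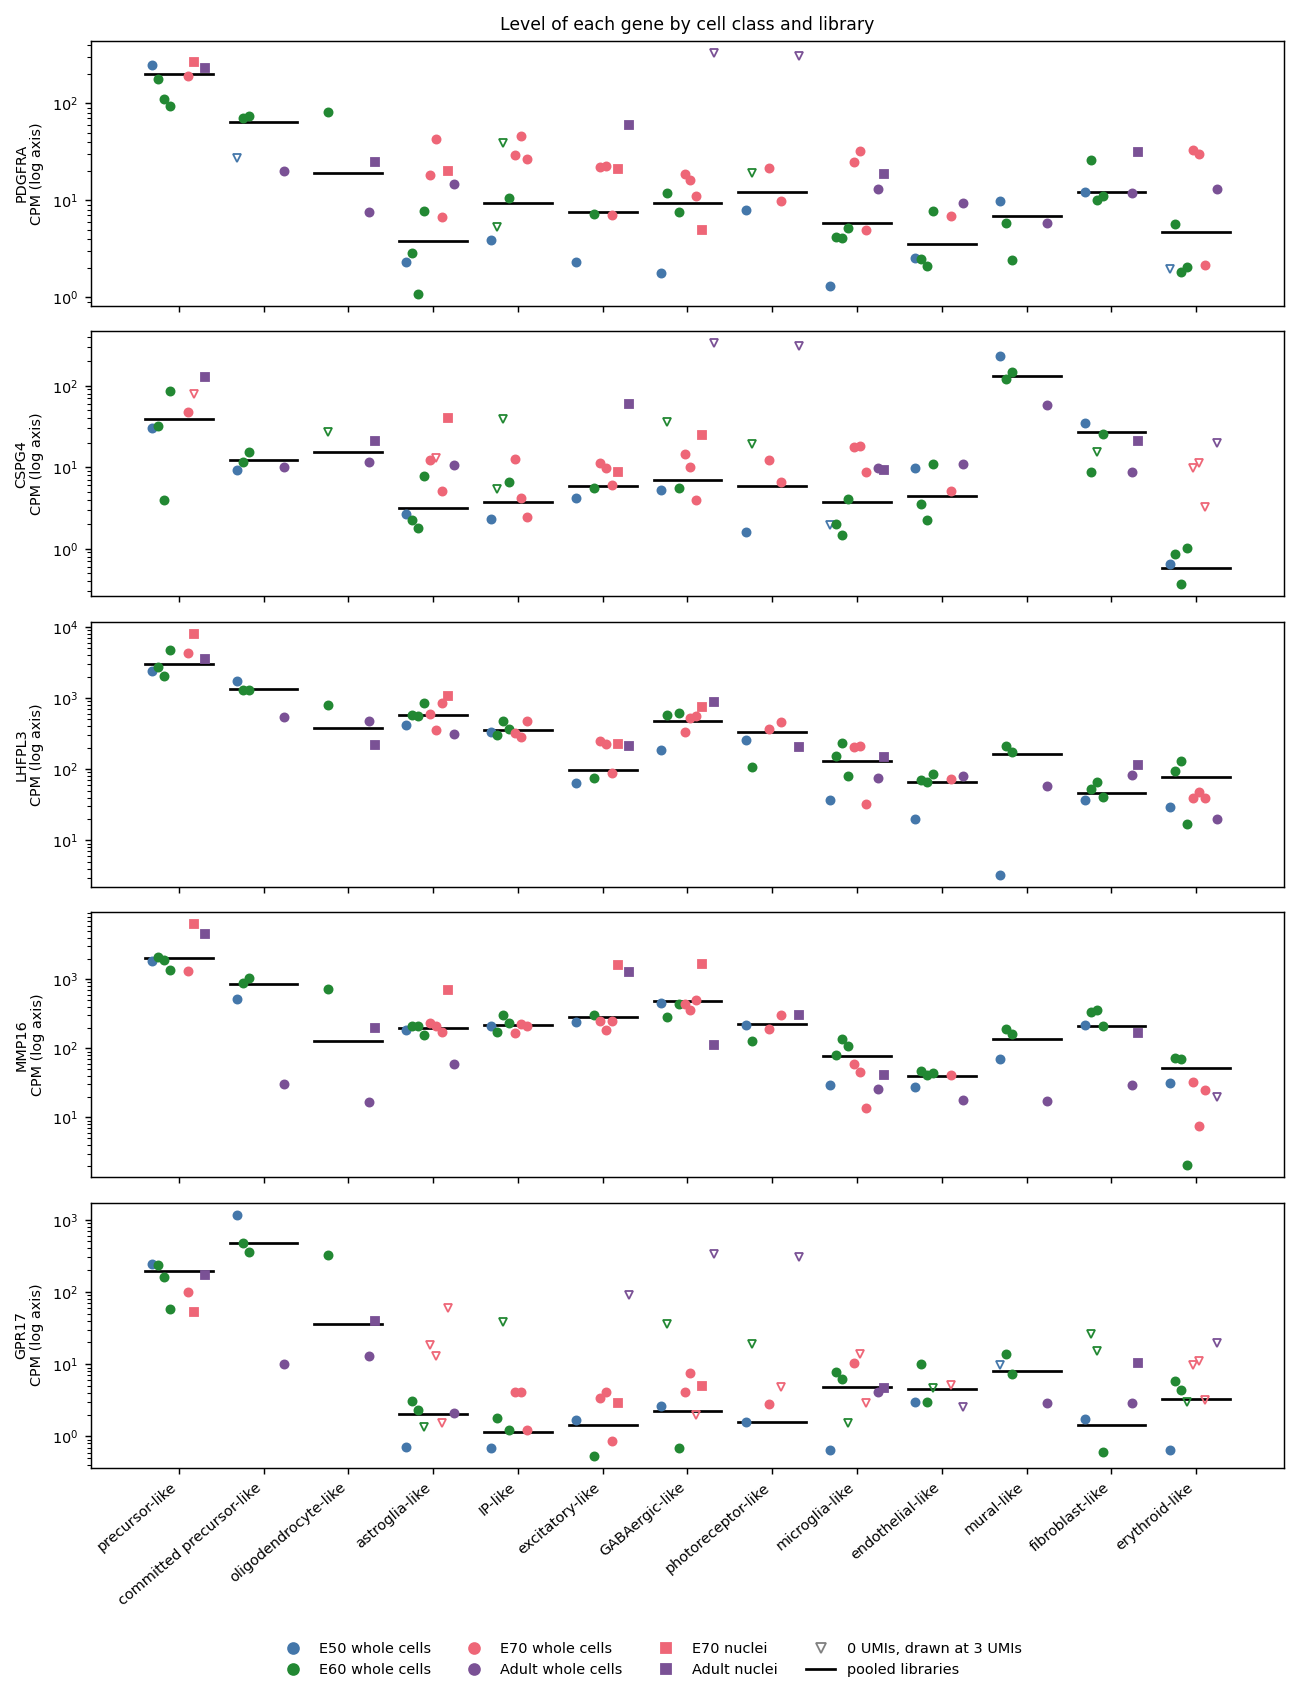
CPM of each gene (log axis) in each named cell class, with a point for each library that held at least 10 cells of the class, coloured by stage, round for whole cells and square for nuclei. Open triangles stand for 0 UMIs and are drawn at the level of 3 UMIs, and black lines give all libraries pooled. PDGFRA, LHFPL3 and MMP16 were highest in precursor-like cells, at 201, 2986 and 2016 CPM, GPR17 in committed precursor-like cells at 475 CPM and CSPG4 in mural-like cells at 133 CPM.

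The lineage itself divided into 8 named subclusters, and the 5 genes changed along them in different ways. The main precursor subcluster (551 cells) had OLIG1, a transcription factor of the lineage, at 1074 CPM, and a dividing precursor subcluster (188 cells) had TOP2A, a gene of mitosis, at 855 CPM against 14.2 CPM. The dividing cells had less of each of the 5 genes. PDGFRA was at 150 against 228 CPM, CSPG4 at 22.8 against 48.2, LHFPL3 at 2497 against 3252, MMP16 at 1572 against 2257 and GPR17 at 159 against 211, and the Poisson intervals of all 5 pairs were apart. These intervals cover counting error only, and the pooled values mix stages and preparations unequally. Of the main subcluster, 33.8% of cells came from Adult_nc, and of the dividing one 56.4% came from E60_1. Each gene was lower in the dividing cells in 4 of 4 libraries with at least 10 cells of both, though by little for PDGFRA in E70_3 (190 against 193 CPM) and for LHFPL3 in E60_2 (2044 against 2083 CPM), and for CSPG4 in E60_2 on 0 against 1 UMI.

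The committed subclusters stood far apart in the same genes. In the 109 cells led by BCAS1 (4433 CPM) and MBP (8542 CPM), GPR17 reached 933 CPM while PDGFRA was at 10.4 CPM and CSPG4 at 6.90 CPM. In the 184 cells with BCAS1 at 682 CPM and the astroglial water channel AQP4 at 1391 CPM, GPR17 was at 220 CPM, close to the 211 CPM of precursors, and PDGFRA at 93.2 CPM. Within library E60_1, PDGFRA was at 3.41 against 99.9 CPM and GPR17 at 1076 against 214 CPM, and within E60_2 PDGFRA was at 0 against 86.2 CPM and GPR17 at 1201 against 220 CPM. LHFPL3 and MMP16 fell between, at 856 and 376 CPM in the BCAS1 and MBP cells and at 1584 and 1101 CPM in the AQP4 cells. Of the AQP4 cells, 6.52% were marked as likely doublets, against 0.917% of the BCAS1 and MBP cells, and the part of doublets in their levels was not tested.

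In the 4 oligodendrocyte-like subclusters, 3 had PDGFRA between 9.31 and 21.3 CPM, MMP16 between 52.7 and 97.1 CPM and GPR17 between 18.1 and 45.5 CPM. The fourth, of 158 cells of which 84.8% came from Adult_nc, had PDGFRA at 71.8 CPM (45.0 to 109), MMP16 at 721 CPM and GPR17 at 163 CPM (121 to 215) beside MBP at 2007 CPM, and 6.33% of its cells were marked as likely doublets. The subcluster with the most MAG, a myelin protein (1462 CPM), mixed preparations. Its 178 whole cells of Adult_1 had LHFPL3 at 478 CPM and MMP16 at 17.2 CPM, and its 251 nuclei of Adult_nc had 298 and 307 CPM, so that its levels differed with the preparation.

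**Figure D2:**
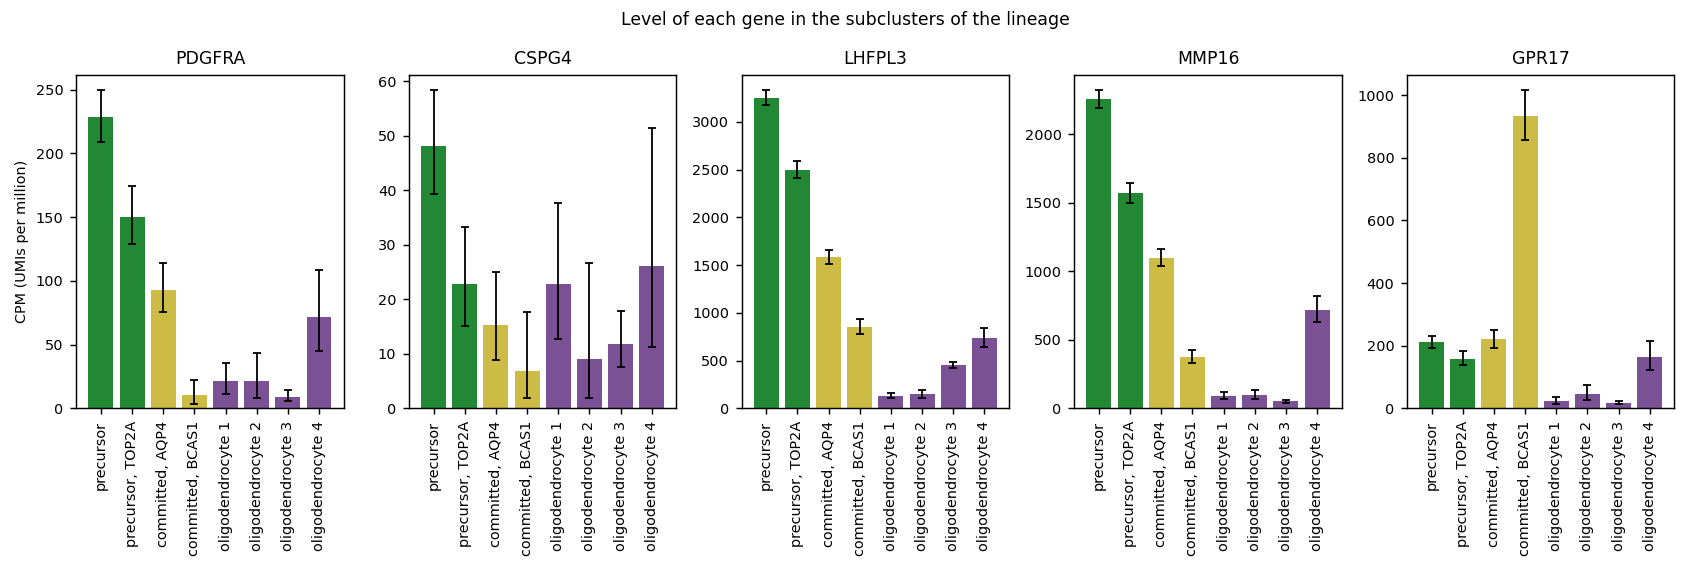
CPM of each gene in the subclusters of the lineage, from all libraries pooled, with precursor-like bars in green, committed precursor-like in yellow and oligodendrocyte-like in purple, and exact Poisson 95% intervals as error bars. The subclusters with TOP2A, AQP4 and BCAS1 are named after these genes. GPR17 peaked at 933 CPM in the committed cells led by BCAS1, where PDGFRA was at 10.4 CPM.

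The genes were often found in the same cells, since LHFPL3 and MMP16 were each in nearly every precursor-like cell (98.8% and 98.2%). Of 739 precursor-like cells, 35 (4.74%) had a UMI of all 5 genes, 173 of 4, 297 of 3 and 1 of none. At 1000 UMIs per cell, 0 of 670 cells had all 5, a share of up to 0.448% if 3 cells had, and 354 (52.8%) had 2. GPR17 was detected in 47.9% of precursor-like cells with PDGFRA and in 36.4% of those without, but cells with more UMIs hold more of both, and at 1000 UMIs the values were 23.2% and 18.3%. For CSPG4 the values were 17.9% with PDGFRA and 13.9% without. At 1000 UMIs they turned to 2.68% and 5.56%, on 3 cells of 670 with both. In the committed class GPR17 was found in 40.7% of cells with PDGFRA and 62.8% of cells without, but this pools subclusters that differ in both genes. Within the AQP4 cells the values were 38.9% and 44.6%, and of the BCAS1 and MBP cells only 4.59% had PDGFRA. At 1000 UMIs no committed cell of 293 had both, where 6.48% had PDGFRA and 29.7% had GPR17, and 3 cells with both would have made 1.02%. The BCAS1 and MBP cells had PDGFRA in 0% at that depth, so only the AQP4 cells could hold both. Of these 184 cells, 10.3% had PDGFRA and 14.7% had GPR17, too few to show whether the genes exclude each other.

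Across the 56 clusters of all cells, each gene was compared with 12453 others by the Pearson correlation of log2(CPM + 10), as a description over clusters that share libraries. PDGFRA was most like STK32A (r = 0.86), PCDH15 (0.80) and CYTL1 (0.76), and GPR17 most like SNX22 (0.89), BCAS1 (0.88) and STK32A (0.87). CSPG4 was most like EDNRA (0.82), an endothelin receptor of the vessel wall, SLC6A13 (0.81) and ASPN (0.80). LHFPL3 was most like KCNIP3 (0.84), KCND2 (0.83) and NOVA1 (0.82), and MMP16 most like LSAMP (0.87), MARK1 (0.86) and CTNND2 (0.86), which are broad neural genes. Among the 5, r was 0.79 for LHFPL3 and MMP16, 0.72 for PDGFRA and GPR17 and 0.47 for PDGFRA and CSPG4, and it was lowest for CSPG4 and LHFPL3, at 0.15.

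Ligands and relatives of these genes were spread over several classes. PDGFA, a ligand of PDGFRA, was highest in committed precursor-like cells (57.4 CPM, against 9.52 in precursor-like cells). The other PDGF ligands, PDGFB (161 CPM), PDGFC (514 CPM) and PDGFD (287 CPM), were highest in endothelial-like cells. PDGFRB, the other receptor and itself a mural marker here, was at 317 CPM in mural-like and 2.68 CPM in precursor-like cells. Of the relatives, substrates and inhibitors of MMP16, MMP14 (134 CPM), MMP2 (222 CPM) and TIMP2 (249 CPM) were highest in fibroblast-like cells, and none of the 7 was highest in the lineage. Of 9 further genes known from precursors, 4 were highest in precursor-like cells (MEGF11, XYLT1, C1QL1 and NEU4), 3 in committed cells (PTPRZ1, TNR and BCAN) and 2 in fibroblast-like cells (VCAN and SULF2), but 6 of these served to name the classes. Astroglia-like cells came close for PTPRZ1 (1712 against 1760 CPM in committed cells) and BCAN (308 against 328 CPM). The committed class itself had AQP4 at 907 CPM. All 6 myelin genes in the files were highest in oligodendrocyte-like cells, which they also served to name.

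By whole library, MMP16 was higher in both libraries of nuclei than in any library of whole cells. MMP16 was at 226 CPM in E50_1, 212, 150 and 241 in E60_1, E60_2 and E60_3, 230, 214 and 248 in E70_1, E70_2 and E70_3, and 34.0 in Adult_1, against 1226 in E70_nc and 700 in Adult_nc. The E70 nuclei were thus 4.93 to 5.73 times as high as the E70 whole cell libraries, and the adult nuclei 20.6 times as high as the adult whole cells. The same direction was seen within cell classes at E70. Excitatory-like cells had 1624 CPM in nuclei against 185 to 252 in whole cells, GABAergic-like cells 1666 against 354 to 507, and precursor-like cells 6295 against 1303 in E70_3. With 1 library of nuclei at each stage there was no test, and the preparation cannot be told apart from the brain it was made from.

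LHFPL3 was at 220 CPM in E50_1, 396, 266 and 289 in the E60 libraries, 324, 334 and 412 in the E70 whole cells, 590 in E70_nc, 218 in Adult_1 and 540 in Adult_nc. The nuclei were 1.43 to 1.82 times the whole cells at E70 and 2.48 times in the adult, beside a range of 220 to 412 CPM among the fetal whole cell libraries themselves. CSPG4 in E70_nc, at 12.6 CPM, lay between the E70 whole cell libraries (9.12 to 17.4 CPM). So did PDGFRA at 23.0 CPM (12.9 to 34.7 CPM) and GPR17 at 3.88 CPM (3.01 to 7.91 CPM). The long genes MMP16 and LHFPL3 were those above all whole cell libraries in nuclei at E70, and the part of intronic reads in this was not tested.

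In the adult, all 5 genes were higher in nuclei than in whole cells, PDGFRA with 46.6 against 10.6 CPM, CSPG4 with 33.0 against 13.2 and GPR17 with 45.8 against 4.54. These libraries differed in what they held, since precursor-like cells were 7.29% of Adult_nc and 0 of 737 cells in Adult_1, where 3 cells would have made 0.407% and the exact upper limit was 0.499%. Oligodendrocyte-like cells made up 67.2% of Adult_nc and 24.6% of Adult_1. Within oligodendrocyte-like cells MMP16 was at 196 against 17.0 CPM, but LHFPL3 was at 222 against 473 CPM, the reverse of the order in whole libraries.

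**Figure D3:**
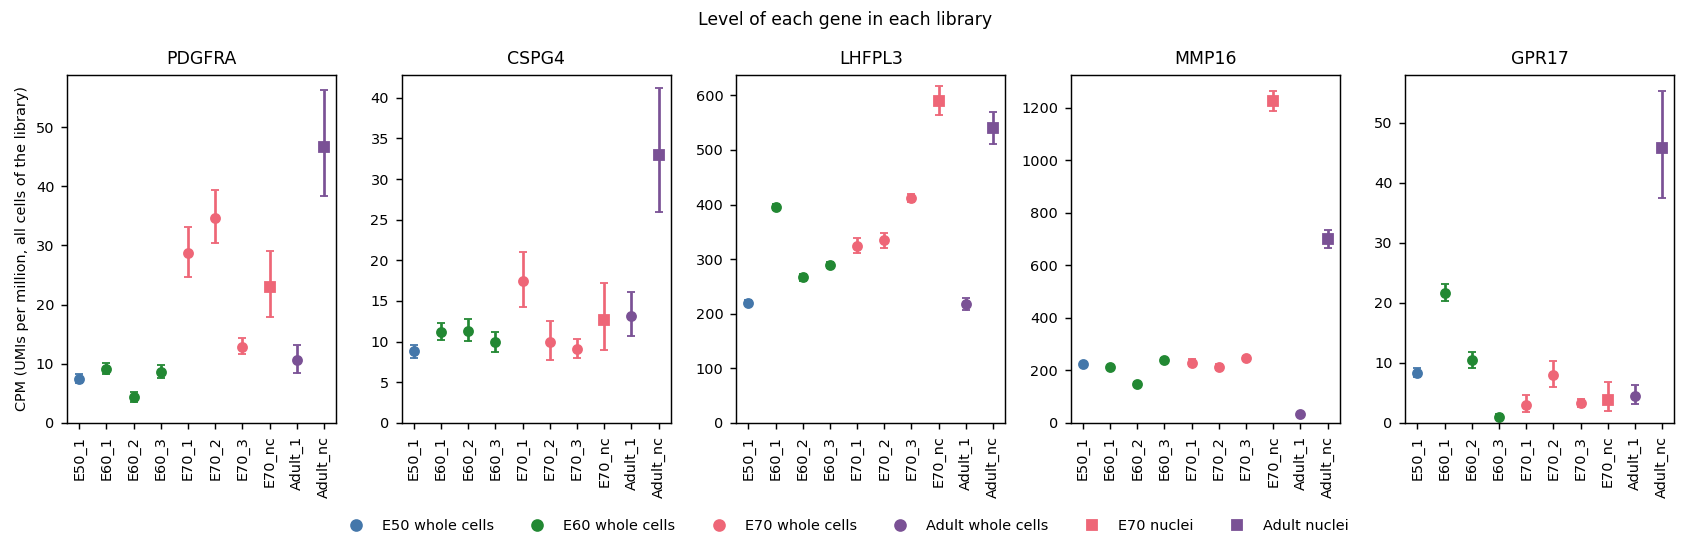
CPM of each gene over all cells of each library, from a linear axis that starts at 0, with exact Poisson 95% intervals, coloured by stage, round for whole cells and square for nuclei. MMP16 stood at 1226 and 700 CPM in the nuclei against at most 248 CPM in whole cells, and PDGFRA at 28.7 and 34.7 CPM in E70_1 and E70_2.

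PDGFRA in whole libraries was not ordered as the share of precursor-like cells was. It was at 7.48 CPM in E50_1, 9.20, 4.36 and 8.64 in the E60 libraries and 28.7, 34.7 and 12.9 in E70_1, E70_2 and E70_3, so that E70_1 and E70_2 were highest among the fetal whole cell libraries. Precursor-like cells were 1.01% of the cells of E70_1 and 0.486% of those of E70_2, against 3.10% in E60_1, 2.63% in E70_3 and 0.519% in E60_3. Cells outside the lineage had 26.5 CPM in E70_1 and 33.0 in E70_2, against 9.38 in E70_3, 2.06 to 8.16 in the E60 libraries and 2.86 in E50_1. Over the named classes with at least 10 cells, which did not include the lineage, the level ran from 18.2 to 32.7 CPM in E70_1 and from 16.2 to 46.0 CPM in E70_2, on 3 to 72 UMIs a class. It was at 22.3 and 22.6 CPM in excitatory-like, 24.6 and 32.1 in microglia-like and 32.7 and 29.8 in erythroid-like cells, the last against 2.16 in E70_3. An unnamed cluster with OLIG1 (253 CPM), EGFR and AQP4 (597 CPM) was counted as outside the lineage, and its highest marker score was that of astroglia. This cluster had PDGFRA at 93.3 CPM in E70_1 and 75.1 CPM in E70_2. In the other whole cell libraries this cluster had PDGFRA between 0 and 26.4 CPM. Over all libraries it held 9.4% of PDGFRA UMIs on 3.51% of all UMIs. The lineage held 8.29% of PDGFRA UMIs on 0.942% of all UMIs in E70_1 and 5.81% on 0.956% in E70_2, so it was above the rest there too, but it held 62.6% in E50_1, 64.8% in E60_1 and 54.1% in E60_2. The part of free RNA in these values was not tested.

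GPR17 was highest in Adult_nc by whole library, at 45.8 CPM, and was at 3.88 CPM in E70_nc. It was at 8.38 CPM in E50_1, 21.7, 10.4 and 1.01 in the E60 libraries, 3.01, 7.91 and 3.27 in the E70 whole cells and 4.54 in Adult_1. Cells outside the lineage had between 0.633 and 5.13 CPM in the whole cell libraries. Among those with at least 10 lineage cells, the lineage had between 12.7 CPM in Adult_1 and 351 CPM in E60_1. E70_1 and E70_2, with 5 lineage cells each, were left out of this range. E60_1 and E60_2 held 190 and 69 committed precursor-like cells and E60_3 fewer than 10.

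**Figure D4:**
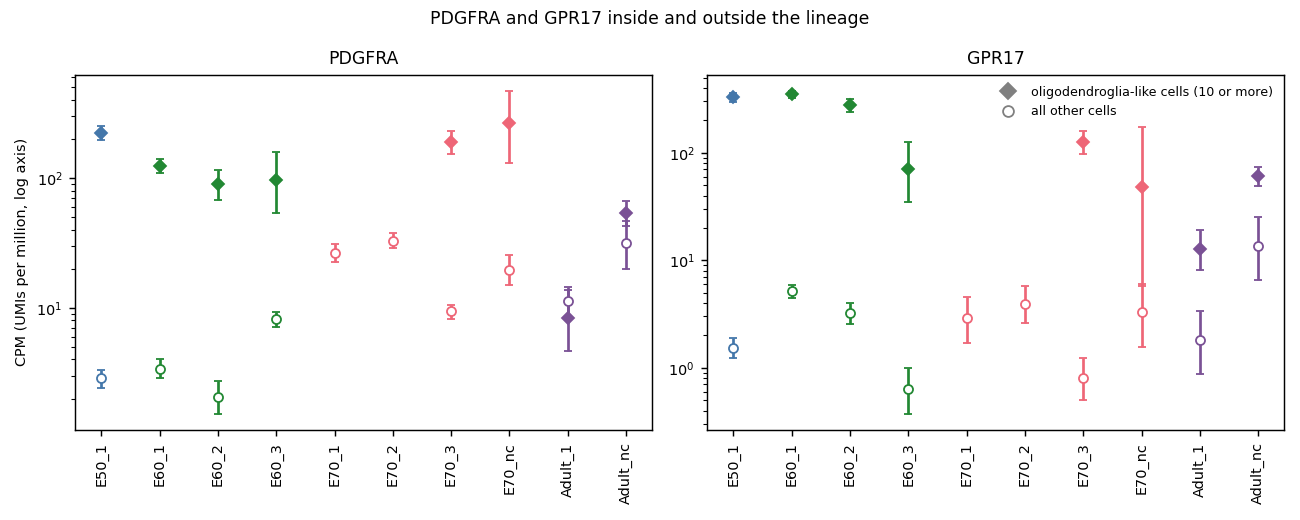
PDGFRA and GPR17 in CPM (log axis) in oligodendroglia-like cells (filled diamonds, libraries with at least 10 such cells) and in all other cells (open circles) of each library, with exact Poisson 95% intervals and colours for the stage. Outside the lineage PDGFRA was at 26.5 and 33.0 CPM in E70_1 and E70_2 and at most 9.38 CPM in the other fetal whole cell libraries, while GPR17 stayed at or under 5.13 CPM in whole cells.

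The replicated comparison was E70 against E60 whole cells, with UMIs summed over each library and tested in edgeR's quasi-likelihood test across all genes. No gene of 16743 was called at an adjusted p under 0.05 (0%), and so none of the 5, while 4916 genes (29.4%) had an unadjusted p under 0.05 and DESeq2 called 2833 genes (16.9%). PDGFRA, in CPM after TMM normalisation, was at 10.1, 5.27 and 8.03 in E60 replicates 1 to 3 and at 24.9, 34.2 and 12.3 in the E70 replicates, with no overlap between the stages. The log2 difference was 1.604 (SE 0.46), with an adjusted p of 0.122 in edgeR's quasi-likelihood test, and the level was higher in 3 of 3 E70 libraries. DESeq2 gave an adjusted p of 0.0129, and edgeR gave 0.0304 without E70_3, where 1570 of 17003 genes (9.23%, with 7.68% higher and 1.56% lower) were called, so the call depends on these choices. Without cells of the lineage the log2 difference was 2.21 (SE 0.60, adjusted p 0.122), and without E70_1 and E70_2 it was 0.66 (SE 0.58, adjusted p 0.870). In library sums such as these, the number of cells of a type and the RNA per cell cannot be told apart. The shares of cells and the levels by class of E70_1 and E70_2, given above, describe each without a test.

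GPR17 was at 23.7, 12.6 and 0.942 CPM at E60 and at 2.61, 7.80 and 3.12 CPM at E70, which overlapped, with a log2 difference of -1.48 (SE 0.97, adjusted p 0.318 in edgeR). The value depended on which libraries were kept. Without E60_3 the difference was -2.04 with an adjusted p of 0.0345, in a fit that called 5902 of 17019 genes (34.7%, with 18.7% higher and 16% lower), and without E60_1 and E60_2 it turned to 2.22 with an adjusted p of 0.949.

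The other genes lay close together at the 2 stages, with overlapping libraries in each. CSPG4 was at 12.2, 13.7 and 9.20 CPM at E60 and 15.1, 9.79 and 8.71 CPM at E70 (log2 difference -0.07, SE 0.36, adjusted p 0.907). LHFPL3 was at 433, 322 and 269 CPM and 282, 330 and 393 CPM (-0.03, SE 0.32, adjusted p 0.960), and MMP16 at 232, 181 and 224 CPM and 200 (E70_1), 211 and 237 CPM (0.03, SE 0.27, adjusted p 0.954). Scaling by total UMIs in place of TMM moved the median of all genes from -0.06 to 0.12, and with it the direction of CSPG4 to 0.16 and of LHFPL3 to 0.17. The lineage alone could not be tested between the stages, as E70_1 and E70_2 held 5 lineage cells each and the test needed at least 10 cells in 2 libraries of each stage.

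Of 50 other genes of their pathways, 46 passed the filter on low counts, and edgeR called 0 of them, with 6 higher and 18 lower at E70 at an unadjusted p under 0.05 (15.1% and 14.3% of all genes). DESeq2 called 3 as higher and 8 as lower, where of all genes it called 10.3% as higher and 6.63% as lower. PDGFB was lower at E70 by a log2 difference of -1.78 (SE 0.57), PDGFC by -1.67 (SE 0.49) and PDGFRB by -1.05 (SE 0.31), with edgeR adjusted p-values of 0.125, 0.122 and 0.122. PDGFD differed by 0.24 (SE 0.67, adjusted p 0.814). The genes that DESeq2 called as higher were CYSLTR2 at 3.67 (SE 0.89), LHFPL1 at 3.27 (SE 0.89) and TNR at 1.42 (SE 0.50) in edgeR, with edgeR adjusted p-values of 0.122, 0.122 and 0.135. CLDN11 and MBP, which make myelin, differed by -4.17 (SE 0.46) and -2.52 (SE 0.91), with adjusted p-values of 0.122 and 0.137. Globin and vascular content moved with these values, since endothelial-like cells were 540 and 696 in E60_1 and E60_2 but 39 in E60_3 and 37 in E70_3, and its part was not tested.

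**Figure D5:**
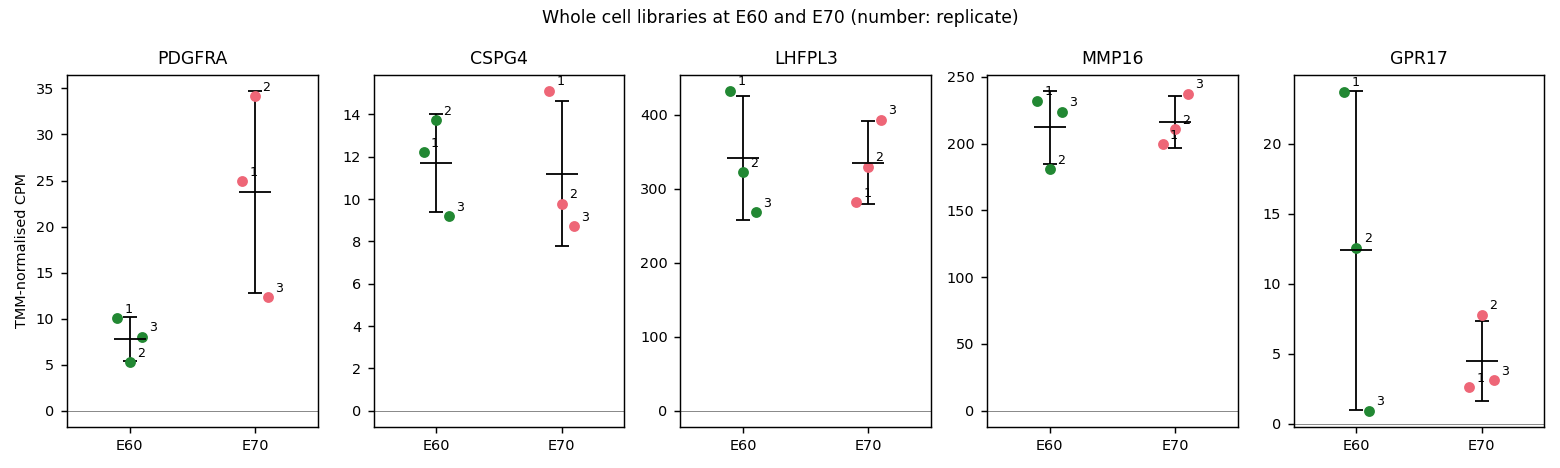
TMM-normalised CPM of each gene in the whole cell libraries at E60 and E70, a point and a number for each replicate library, with the mean and SD of each stage (n = 3) in black. PDGFRA was higher in all 3 E70 libraries, at 12.3 to 34.2 CPM against 5.27 to 10.1 CPM, and the stages overlapped in the other genes.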

How the data were processed

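The authors mapped the reads of 10 libraries with Cell Ranger to Sscrofa11.1, introns included, and deposited UMI counts per gene and cell, which were used as deposited. The 5 genes, the gene lists and the tests were chosen with earlier results of these data known, and thresholds for naming clusters and 2 alternatives, without cells of the lineage and without E70 replicates 1 and 2, were set after the data were seen. Named genes were the 5 members, 50 genes of their pathways and, for each member, the 3 genes most correlated with it over clusters.

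Cells were merged over libraries with mutual nearest neighbours on 3000 variable genes and 50 principal components, leaving out 126 genes (members, markers and pathway genes), and clustered by the Louvain method (scanpy 1.11.5, igraph 0.11.9, resolution 1.6, 52 clusters). The lineage was clustered again at resolution 1.2. A cluster took the name of a marker list with at least 3 detected markers. Likely doublets were marked from simulated doublet scores at the rate expected for the number of cells, since an automatic threshold marked none in E60_1 and E60_2, and they were kept. Shares were repeated with cells thinned to 1000 and 500 UMIs, leaving out shallower cells.

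Library sums of the counts of E60 and E70 whole cells were compared with edgeR 4.0.16 (R 4.3.3, quasi-likelihood, TMM, Benjamini-Hochberg adjustment) after a filter on low counts, a script that was tested on simulated data. DESeq2 1.42.0, no filter, scaling by total UMIs, other resolutions, a replicate block and leaving out libraries were the alternatives.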

Additional observations from a re-analysis of the deposited data

How the results depend on the processing

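The level of each gene in its classes stayed within 1 SD over libraries in 59 of 60 alternatives, an SD that spans stages and preparations, and the exception was GPR17 in precursor-like cells, at 110.8 CPM with clusters at resolution 2.4 against 192 CPM. The median share of cells with a UMI over the 10 libraries fell with thinning to 1000 and 500 UMIs, for CSPG4 to 1.11% and 0.470%, for LHFPL3 to 23.7% and 13.8%, for MMP16 to 19.6% and 11.5% and for GPR17 to 0.759% and 0.411%.

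Between E60 and E70, calls over all genes numbered 2833 with DESeq2, from 0 to 5902 when a library was left out (5902 without E60_3 and 1570 without E70_3) and 0 otherwise. The PDGFRA difference was 1.64 with DESeq2 and ranged from 1.25 to 1.96 with a library left out. It remained above 0 in every alternative run. For GPR17 the range was -2.11 to -0.61, and the value was 2.22 without E60 replicates 1 and 2. The other 3 genes turned in direction around 0, none of them called. CSPG4 was at 0.16 with total UMIs, 0.27 without E60 replicates 1 and 2, and -0.34 to 0.14 with a library left out. LHFPL3 was at 0.0014 with DESeq2, 0.17 with total UMIs, 0.31 without E60 replicates 1 and 2, 0.061 without cells of the lineage, 0.20 without E70 replicates 1 and 2, and -0.18 to 0.17 with a library left out. MMP16 was at -0.0043 without the filter, -0.13 without erythroid-like and vascular-like cells, -0.060 without E60 replicates 1 and 2, and -0.070 to 0.084 with a library left out. The causes were not tested. Where a stage was left with 1 library, that library was assumed to vary like the others.

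With the replicate number as a block, 0 genes were called (2839 at an unadjusted p under 0.05), and PDGFRA was at 1.53, CSPG4 at -0.08, LHFPL3 at -0.01, MMP16 at 0.03 and GPR17 at -0.70. Deviations of libraries of the same number correlated at -0.11, 0.07 and -0.02, so the numbers do not pair the samples. The comparisons within oligodendroglia-like cells were not run, since E70_1 and E70_2 held too few.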
